A study of Mus musculus with 2 samples.

Results

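Arginine metabolism was followed through 6 genes, taken by name. They were the arginases Arg1 (ENSMUSG00000019987) and Arg2 (ENSMUSG00000021125), the inducible nitric oxide synthase Nos2, the cationic amino acid transporter Slc7a2, argininosuccinate synthase Ass1 and ornithine decarboxylase Odc1. All 6 were present by symbol among the 32285 genes of both count matrices. The 2 droplet libraries held tumor-infiltrating cells from male C57BL/6J mice, 5 to 6 weeks old when obtained, before tumor implantation. The mice bore orthotopic pancreatic tumors grown from K210 cells, a line from a spontaneous pancreatic tumor of a genetically engineered mouse. The PBS library was a pool of 3 mice given the vehicle. The cmExoaCD11b library was a pool of 3 mice given exosomes that carried IL-12 mRNA and 2′3′-cGAMP and bore an antibody to CD11b, at 5 µg of cGAMP per mouse by intraperitoneal injection. Both were taken 48 h after treatment, and the question was how the myeloid and lymphoid cells of the tumor differed in these genes between the treatments.

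Slc7a2 carries arginine into myeloid cells. The arginases, Arg1 in the cytosol and Arg2 in mitochondria, split arginine into urea and ornithine, which Odc1 turns into the polyamine putrescine. Nos2 instead oxidizes arginine to nitric oxide and citrulline, and Ass1 takes citrulline back toward arginine. In tumors, Arg1 of macrophages and suppressive myeloid cells is known for using up arginine that T cells need, and Nos2 for its induction by interferon-γ and microbial products.

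Each library was 1 pool, so no difference between treatments has a replicate check and no p-value is given. A level is given in CPM, the unique molecular identifiers (UMIs) of a gene for each 1000000 UMIs summed over the cells of 1 class, and its 95% interval is exact Poisson. A ratio sets cmExoaCD11b over PBS, and its 95% interval is exact and conditional on the summed count. All intervals cover counting error only, and where a few cells held most UMIs of a gene they are too narrow for the spread between cells. After filtering, 6835 PBS cells (median 3470 UMIs) and 7074 cmExoaCD11b cells (median 4105 UMIs) were kept, of which 16 barcodes occurred in both libraries. Cells were assigned to a class by detected markers, none of them among the 6 genes, and 11.5% of PBS and 10.1% of cmExoaCD11b cells met no class. Macrophages numbered 371 in PBS and 70 in cmExoaCD11b, monocytes 222 and 316, neutrophils 3872 and 3617, neutrophil precursors 788 and 979, T cells 402 and 855, and B cells 256 in each library. The macrophage class was thus 5.43% (95% Clopper-Pearson interval 4.90 to 5.99%) of PBS cells and 0.990% (0.772 to 1.25%) of cmExoaCD11b cells.

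Csf1r and Ly6g, which no marker list held, were compared with these names. Csf1r, the receptor of macrophage colony-stimulating factor, was at 278 CPM in PBS macrophages, 119 in monocytes, 20.5 in neutrophils and 5.51 in B cells. Ly6g, which marks neutrophils, was at 377 CPM in PBS neutrophils, 10.5 in macrophages and 9.64 in B cells. S100a8, a calcium-binding protein gene abundant in neutrophils and itself one of their class markers, reached 3020 CPM in PBS macrophages and 3394 in cmExoaCD11b macrophages against 454 and 455 in B cells. Free RNA was estimated from S100a8 and S100a9 in T and B cells at 2.51% of UMIs in PBS and 2.48% in cmExoaCD11b.

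**Figure D1:**
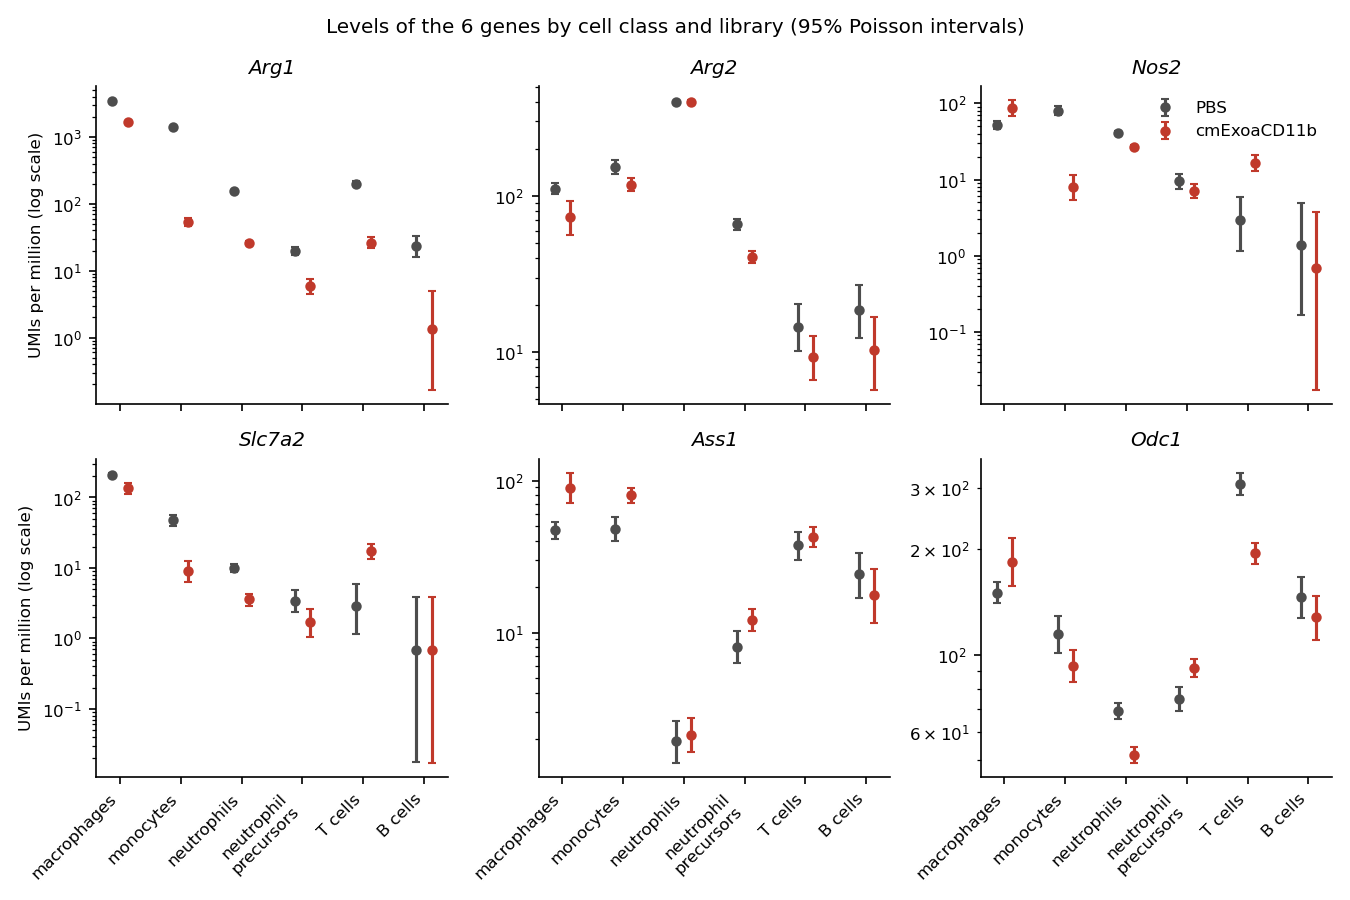
Level of each of the 6 genes in CPM (log scale) in 6 cell classes, PBS in grey and cmExoaCD11b in red, points with exact Poisson 95% intervals. Arg1 was highest in macrophages, at 3453 in PBS and 1643 in cmExoaCD11b, whereas Arg2 was highest in neutrophils, at 396 and 400.

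The 6 genes were carried by different cells. Macrophages held 10.8% of all PBS UMIs but 67.1% of the Arg1 and 67.8% of the Slc7a2 UMIs. These shares depended on how cells were assigned. By markers, PBS macrophages, monocytes and neutrophils held 18754, 3399 and 3364 of the 27957 Arg1 UMIs. With classes from clusters formed without the 6 genes, they held 26231, 131 and 1178. Of the 1675 Slc7a2 UMIs, PBS macrophages held 1136 by markers and 1569 with clusters. Neutrophils held 43.1% of all PBS UMIs but 77.4% of the Arg2 UMIs. The Nos2 UMIs of PBS were split, with 54.4% in neutrophils, 17.2% in macrophages and 11.9% in monocytes. Ass1 was nearly missing from neutrophils, which held 5.61% of its PBS UMIs, and Odc1 was spread, with 29.7% in neutrophils, 16.2% in macrophages and 14.7% in T cells. In cmExoaCD11b, where macrophages held 1.41% of all UMIs, they still held 47.1% of the Arg1 and 30.3% of the Slc7a2 UMIs.

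**Figure D2:**
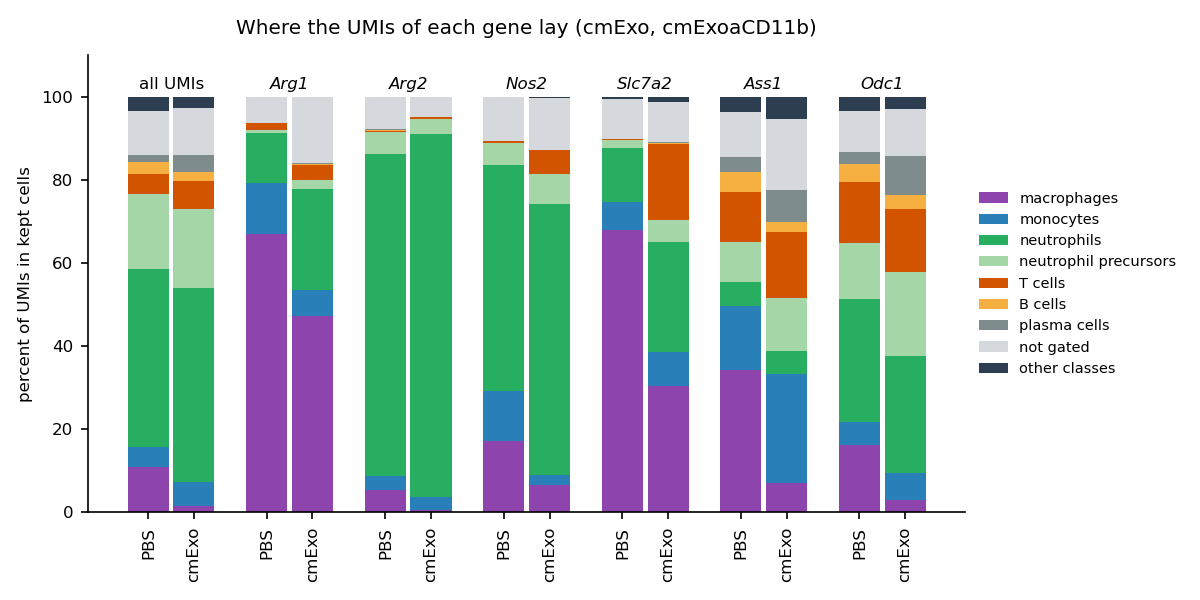
Percent of the UMIs of each gene, and of all UMIs, found in each cell class of the kept cells, as stacked bars for PBS and cmExoaCD11b. Macrophages held 67.1% of the Arg1 UMIs in PBS and 47.1% in cmExoaCD11b, and neutrophils held 77.4% and 87.5% of the Arg2 UMIs. Classes are those by markers, and with classes from clusters PBS macrophages held 26231 of 27957 Arg1 UMIs.

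Arg1 was lower in cmExoaCD11b in macrophages, monocytes and neutrophils, and its ratio lay below 1 in all 3 classes under every alternative that was run. PBS macrophages were at 3453 CPM (3404 to 3503) and cmExoaCD11b macrophages at 1643 CPM (1559 to 1730), a ratio of 0.476 (0.451 to 0.502). In monocytes it was 1412 CPM (1365 to 1460) and 53.3 CPM (46.1 to 61.4), a ratio of 0.0378 (0.0325 to 0.0437). In neutrophils it was 155 CPM (150 to 160) and 25.7 CPM (23.9 to 27.6), a ratio of 0.166. The 8 macrophage markers, all 8 above 0, summed to 990 and 564 CPM in monocytes and 228 and 71.9 CPM in neutrophils, so they were lower in cmExoaCD11b in the same classes. Macrophages stood above monocytes, and monocytes above T cells and neutrophils, in both libraries without overlap of the intervals, while T cells and neutrophils overlapped in cmExoaCD11b. The place of cmExoaCD11b monocytes leaned on 1 cell with 103 of their 195 Arg1 UMIs. Without the richest cell of each class, cmExoaCD11b monocytes were at 25.6 CPM, neutrophils at 19.4 and T cells at 17.5. Over all kept cells Arg1 went from 555 to 49.2 CPM, a ratio of 0.0887. With the cmExoaCD11b level of each class and the PBS share of each class in all UMIs, the ratio would be 0.361, and with the PBS levels and the cmExoaCD11b shares it would be 0.466.

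The Arg1 of macrophages was spread over more of the cells than that of monocytes. The richest 10% of macrophages held 49.4% of its UMIs in PBS and 53.5% in cmExoaCD11b, against 76.9% and 100% for monocytes. In cmExoaCD11b 1 macrophage held 222 of the 1446 Arg1 UMIs. The median PBS macrophage held 11.0 Arg1 UMIs per 10000 and the median cmExoaCD11b macrophage 3.83, and 50.9% and 34.3% of them reached 10 per 10000. In monocytes the median was 0 in both libraries, and 52 of 222 PBS cells (23.4%) against 6 of 316 cmExoaCD11b cells (1.90%) reached 10 per 10000. A single cmExoaCD11b monocyte held 103 of the 195 Arg1 UMIs. Without the cell richest in Arg1 in each library, the ratio was 0.0192 in monocytes, about 2-fold further from 1, and 0.421 in macrophages. Thinned to 1000 UMIs per cell, which left out 4 and 2 shallower macrophages and 4 and 7 shallower monocytes, Arg1 was detected in 55.9% (50.6 to 61.0%) of PBS and 42.6% (30.7 to 55.2%) of cmExoaCD11b macrophages, so the intervals of the shares overlapped. In monocytes the thinned shares were 25.2% (19.6 to 31.5%) and 3.24% (1.56 to 5.87%), which did not overlap, and without thinning they were 37.8% and 9.49%. The shares in unthinned macrophages were 78.4% and 62.9%, and the B cell shares on the thinned scale were 3.31% (1.44 to 6.41%) and 0%, with 0 of 251 cmExoaCD11b B cells (upper limit 1.46%).

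**Figure D3:**
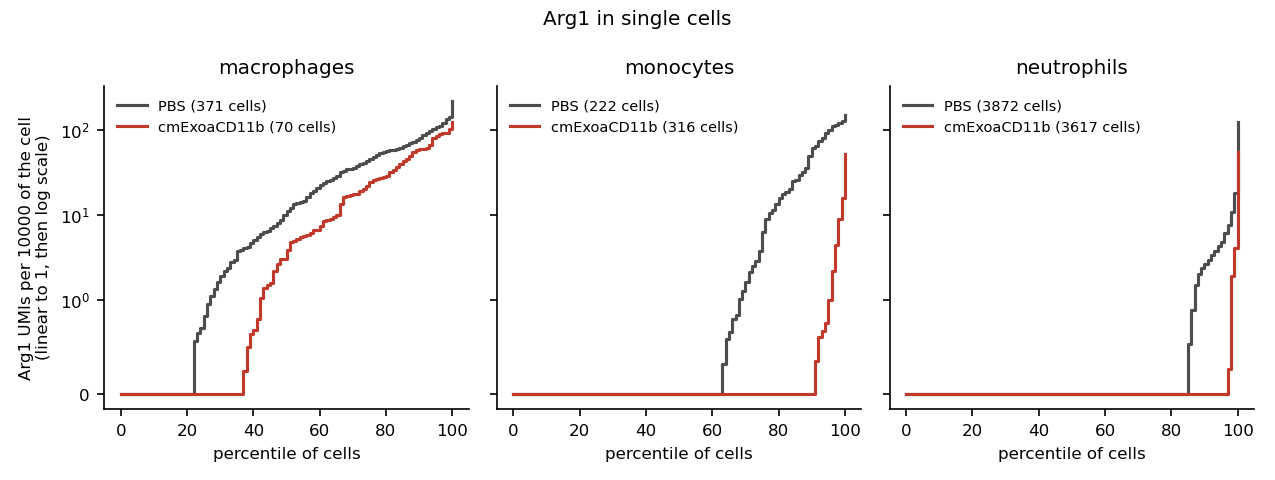
Arg1 UMIs per 10000 UMIs of a cell against the percentile of cells, in macrophages, monocytes and neutrophils, with PBS in grey and cmExoaCD11b in red. Both curves are at 0 up to percentile 21 in macrophages, 61 in monocytes and 84 in neutrophils, and above these the cmExoaCD11b curve lies below the PBS curve. The medians are 3.83 in cmExoaCD11b and 11.0 in PBS macrophages, and 0 in both libraries in monocytes and neutrophils.

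The Arg1 level of monocytes went with their macrophage markers. The 162 PBS monocytes with a detected macrophage marker were at 1913 CPM and the 60 without one at 136 CPM, with median depths of 9587 and 4508 UMIs. In cmExoaCD11b the 210 with a marker were at 76.5 CPM and the 106 without at 7.36 CPM. The ratio between libraries was 0.0400 with a marker and 0.0542 without. The size of the monocyte ratio differed between ways of assigning cells. When classes were taken from clusters formed without the 6 genes, 171 PBS and 482 cmExoaCD11b monocytes were at 78.7 and 38.4 CPM, a ratio of 0.488, and the 575 and 135 macrophages at 3096 and 1555 CPM, a ratio of 0.502. These clusters were mixed. Of their cells with a class by markers, 64.2% were monocytes in the monocyte cluster and 68.2% macrophages in the macrophage cluster. When macrophages, monocytes and the cells tied between them were pooled, the ratio was 0.137.

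Macrophages could also be divided by Mmp12, a matrix metalloelastase of tissue macrophages and itself one of the class markers. PBS macrophages with Mmp12 were at 4172 CPM of Arg1 and those without at 2869, and in cmExoaCD11b 14 cells with Mmp12 were at 3138 and 56 without at 1269. The ratio was 0.752 (0.689 to 0.819) with Mmp12 and 0.442 (0.412 to 0.474) without. Cells with Mmp12 were 38.3% of PBS macrophages, with a median of 16125 UMIs, and 20% of cmExoaCD11b macrophages, with a median of 10554. Spp1, the osteopontin gene of tumor macrophages, was at 4210 CPM in PBS and 1029 in cmExoaCD11b macrophages.

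Outside macrophages and monocytes, low Arg1 levels stood beside free RNA and beside macrophage genes. Empty droplets held Arg1 at 859 CPM in PBS and 113 in cmExoaCD11b. At the share of free RNA estimated from T and B cells, this gives 21.5 and 2.80 CPM. The share was not estimated for other classes and may differ in them. B cells (23.4 and 1.37 CPM) and PBS neutrophil precursors as a whole (19.8 CPM) were at about that level. The cmExoaCD11b precursors were at 5.85 CPM, of which 1 cell held 42.0%. PBS precursors with Mki67 or Top2a, genes of dividing cells, were at 10.1 CPM, and those without were at 47.7 CPM. Neutrophils were above the free RNA values at 155 and 25.7 CPM, but 93.5% of the Arg1 UMIs of PBS neutrophils lay in the richest 10% of cells. The richest cmExoaCD11b neutrophil held 184 of the 747 UMIs together with 34 UMIs of the macrophage gene C1qa. Neutrophils with no macrophage marker, 2643 and 3230 cells, were at 37.5 and 4.05 CPM, a ratio of 0.108. The thinned share of PBS neutrophils with Arg1, 5.70% (4.98 to 6.49%; 15.6% unthinned), had an interval that overlapped that of B cells (3.31%), at median depths of 3385 and 3544 UMIs, so no difference is read from these shares, while the CPM levels of the classes were apart. T cells were at 199 CPM in PBS and 26.3 in cmExoaCD11b. The 8 macrophage markers summed to 396 CPM in PBS T cells and 138 in cmExoaCD11b T cells, all 8 above 0, against 173 and 19.8 in B cells, and 1 PBS T cell held 138 of 480 Arg1 UMIs. The part of these macrophage transcripts in the Arg1 of monocytes, neutrophils and T cells was not tested.

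Arg2 was highest in neutrophils, where the interval of its ratio held 1. PBS neutrophils were at 396 CPM (388 to 405) and cmExoaCD11b neutrophils at 400 CPM (393 to 408), a ratio of 1.01 (0.982 to 1.04), with no cell holding more than 0.279% of the UMIs. Next came monocytes, at 154 and 118 CPM with a ratio of 0.767 (0.666 to 0.884), then macrophages, at 111 and 72.7 CPM with a ratio of 0.655 (0.498 to 0.848), then precursors, at 65.9 and 40.6 CPM with a ratio of 0.617 (0.546 to 0.697). In each library the levels of these 4 classes were apart, while T and B cells overlapped each other at the bottom. With classes from clusters, the ratios were 1.22 in monocytes and 1.27 in macrophages, so their direction depended on the classes. Thinned shares of neutrophils with Arg2 were 36.9% (35.3 to 38.5%) in PBS and 41.8% (40.2 to 43.5%) in cmExoaCD11b, which did not overlap. They stood against 2.48% and 1.20% of B cells, and unthinned they were 70.2% and 75.9%. Neutrophils without Retnlg, a gene of mature neutrophils and one of the class markers, held more Arg2 than those with it, at 536 against 369 CPM in PBS and 547 against 394 in cmExoaCD11b, but they were shallower, with medians of 2811 against 3791 UMIs in PBS and 2224 against 4966 in cmExoaCD11b. Neutrophils without Retnlg were 29.0% of the class in PBS and 11.0% in cmExoaCD11b. Divided by Cxcr2, another class marker, the Arg2 ratio lay on both sides of 1. It was 0.926 (0.894 to 0.960) in neutrophils with Cxcr2 and 1.25 (1.18 to 1.31) in those without. Depth differed here too, with medians of 3677.5 with Cxcr2 against 3103.5 UMIs without in PBS, and 5460.5 against 2795 in cmExoaCD11b. Cells with Cxcr2 were 48.9% of PBS and 72.6% of cmExoaCD11b neutrophils.

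Nos2 differed by class. Monocytes of the PBS library were at 80.6 CPM (69.7 to 92.8) and those of cmExoaCD11b at 7.93 CPM (5.31 to 11.4), a ratio of 0.0984 (0.0642 to 0.146). In neutrophils it was 40.9 and 26.9 CPM, a ratio of 0.656 (0.596 to 0.723), which turned to 1.06 among the 920 and 1317 neutrophils above the ranked-UMI cut-off alone. In macrophages it was 51.7 CPM (45.9 to 58.2) and 87.5 CPM (69.0 to 109), a ratio of 1.69 (1.30 to 2.18). This higher value rested on 1 of the 70 cmExoaCD11b macrophages, which held 28 of the 77 Nos2 UMIs. Without the richest cell of each library, Nos2 was 48.8 and 56.9 CPM, a ratio of 1.17 (0.842 to 1.59). Divided by Mmp12 with all cells kept, the ratio was 3.60 (2.45 to 5.17) with it and 1.23 (0.838 to 1.77) without. The 14 cmExoaCD11b macrophages with Mmp12 held 38 of the 77 Nos2 UMIs. With monocytes pooled in, the ratio was 0.415, while in the 575 and 135 macrophages taken from clusters Nos2 was 68.7 and 168 CPM, a ratio of 2.44. Thinned shares of macrophages with Nos2 were 5.72% (3.58 to 8.61%) and 4.41% (0.919 to 12.4%), and those of monocytes 7.34% (4.25 to 11.6%) and 1.62% (0.527 to 3.74%), while 0 of 242 and 0 of 251 B cells had it. Unthinned, they were 21.0% and 18.6% of macrophages, and 40 of 222 and 16 of 316 monocytes had Nos2. The monocyte difference depended on the classes. With clusters Nos2 was 15.6 CPM in PBS (26 UMIs) and 12.2 CPM in cmExoaCD11b (68 UMIs), a ratio of 0.778. These counts are few, so no difference is read from them. Without cells carrying a macrophage marker Nos2 was 22.1 and 8.17 CPM, a ratio of 0.370 (0.149 to 0.880).

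Slc7a2 followed macrophages. PBS macrophages were at 209 CPM (197 to 222) and cmExoaCD11b macrophages at 135 CPM (112 to 162), a ratio of 0.646 (0.531 to 0.781), and monocytes at 47.4 and 9.03 CPM, a ratio of 0.191 (0.125 to 0.283). In neutrophils it was 10.0 and 3.57 CPM, a ratio of 0.356 (0.279 to 0.451). Few cells held it: the richest 10% of macrophages carried 72.6% of its UMIs in PBS and 75.6% in cmExoaCD11b. With each macrophage weighted equally, the ratio was 1.20, and with classes from clusters 1.02 in macrophages and 1.21 in monocytes. Divided by Mmp12, the ratio was 1.63 (1.23 to 2.13) in macrophages with it and 0.398 (0.299 to 0.522) in those without. The 14 cmExoaCD11b macrophages with Mmp12 held 61 of the 119 Slc7a2 UMIs. No direction thus holds for Slc7a2 under all settings in macrophages and monocytes. In neutrophils the ratio stayed below 1 in all 11 alternatives, from 0.167 to 0.560, but few cells held the gene. In PBS the richest neutrophil held 58 of 218 Slc7a2 UMIs, beside 145 of Arg1 and 111 of Spp1. In cmExoaCD11b it held 28 of 104, beside 38 and 0. Neutrophils without a macrophage marker held 36 and 33 Slc7a2 UMIs (2.21 and 1.24 CPM). After thinning, 16 of 3752 and 5 of 3497 neutrophils had Slc7a2. Thinned shares of macrophages with Slc7a2 overlapped, at 14.2% (10.8 to 18.2%) and 11.8% (5.22 to 21.9%), and were 39.4% and 32.9% unthinned. In 60 PBS monocytes without a macrophage marker there were 8 Slc7a2 UMIs, and in 106 cmExoaCD11b monocytes without one there were 0.

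Ass1 was higher in cmExoaCD11b macrophages and monocytes. PBS macrophages were at 47.1 CPM (41.5 to 53.3) and cmExoaCD11b macrophages at 89.8 CPM (71.1 to 112), a ratio of 1.90 (1.46 to 2.46), and monocytes at 48.2 CPM (39.8 to 57.8) and 79.9 CPM (71.0 to 89.6), a ratio of 1.66 (1.33 to 2.07). Macrophages and monocytes overlapped each other in both libraries. The ratio lay between 1.69 and 2.04 in macrophages and between 1.36 and 2.67 in monocytes under every alternative that was run. Unthinned shares were 24.3% and 34.3% of macrophages and 18.9% and 32.6% of monocytes, and thinned shares were 2.72% (1.31 to 4.95%) and 5.88% (1.63 to 14.4%) of macrophages and 2.75% (1.02 to 5.89%) and 7.44% (4.78 to 11.0%) of monocytes, all with overlapping intervals and against 1.65% and 0.398% of B cells. T cells, at 37.4 and 42.8 CPM, differed less, with a ratio of 1.14, and neutrophils were at 1.94 and 2.13 CPM. Neutrophil precursors were at 8.08 and 12.1 CPM, where 1 PBS cell held 33 of 73 UMIs, and without the richest cell of each library at 4.47 and 11.1 CPM, a ratio of 2.48 (1.73 to 3.63).

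Odc1 was highest in T cells in PBS. PBS T cells were at 307 CPM (285 to 330) and cmExoaCD11b T cells at 195 CPM (182 to 209), a ratio of 0.635 (0.574 to 0.702), and no single cell held more than 4.17% of the UMIs. T cells without Mki67 or Top2a, genes of dividing cells, went from 326 to 187 CPM, a ratio of 0.575, and those with them from 256 to 217 CPM, a ratio of 0.850 (0.692 to 1.04). Macrophages were at 150 and 184 CPM, a ratio of 1.22 (1.03 to 1.45). Without the richest cell of each library it was 1.17 (0.971 to 1.40), an interval that held 1. Monocytes were at 114 and 93.0 CPM, a ratio of 0.814 (0.693 to 0.958), which was 1.07 where a class had to lead by at least 2 markers. Neutrophils had the lowest values of the 6 classes, at 69.0 and 51.8 CPM with a ratio of 0.751 (0.699 to 0.807), although in PBS they overlapped the precursors. Precursors were at 74.7 and 91.5 CPM, a ratio of 1.22 (1.11 to 1.35). This was near the median ratio of 1.18 over all 10258 genes with at least 50 UMIs in that class, so no rise particular to Odc1 is read there. Neutrophils without Retnlg were at 122 and 119 CPM, against 58.5 and 48.9 CPM in those with it. Thinned shares of T cells with Odc1 were 22.1% (interval from 18.1%) and 14.3% (interval up to 16.8%), which did not overlap, and were 50.7% and 36.7% unthinned. In B cells Odc1 was at 146 and 128 CPM, so their shares do not serve as a background for this gene. The 105 cmExoaCD11b plasma cells were at 194 CPM, overlapping T cells.

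**Figure D4:**
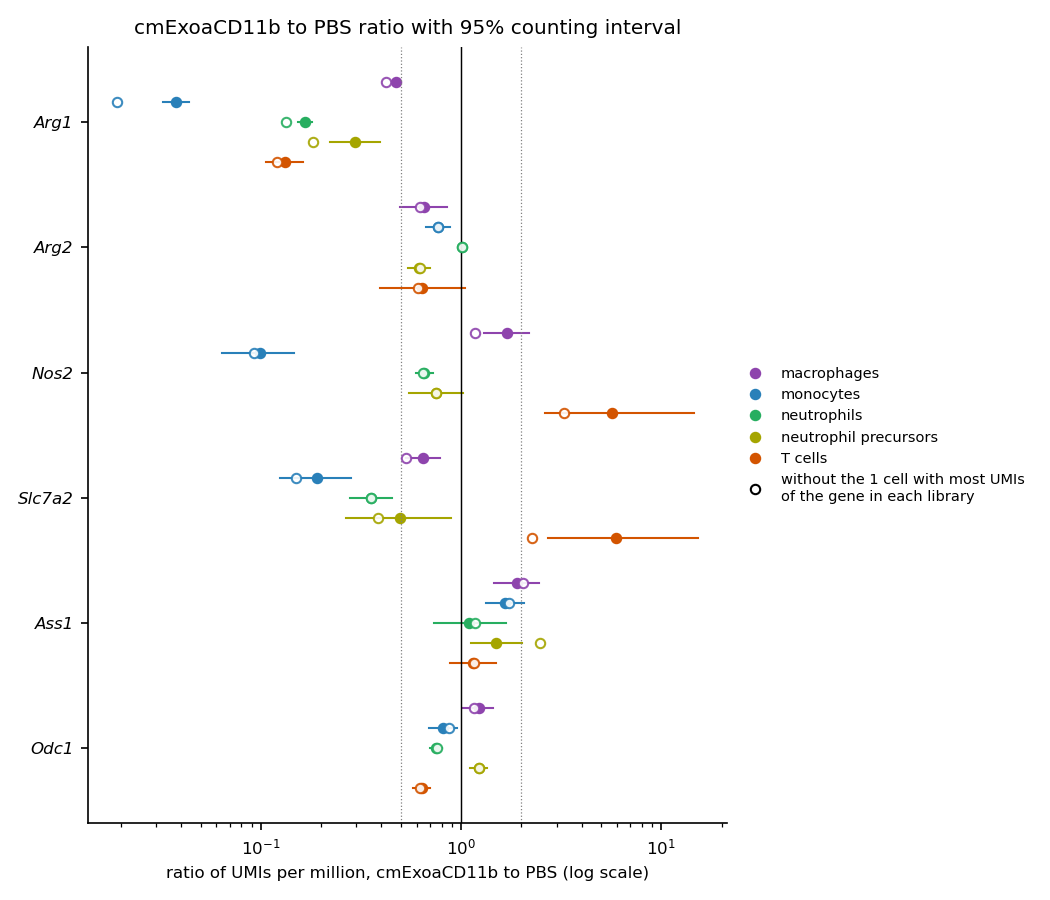
Ratio of cmExoaCD11b to PBS (log scale) for each gene in 5 cell classes, filled points with exact conditional 95% intervals and open points without the 1 cell with most UMIs of the gene in each library. Arg1 lies below 0.5 in all 5 classes, and the filled Nos2 point of macrophages at 1.69 moves to 1.17 without that cell. For Arg1, PBS neutrophil precursors as a whole (19.8 CPM) were at about the level expected from free RNA (21.5 CPM). Those without Mki67 or Top2a were at 47.7 CPM.

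A difference of at least 2-fold was not common among all genes with at least 50 UMIs in a class. In macrophages 3.63% of 8548 genes were that much higher in cmExoaCD11b and 4.21% that much lower, and among the 6 genes 0 were higher and 1, Arg1, was lower. This Arg1 ratio, 0.476 (0.451 to 0.502), was close to the 2-fold line. It was 0.620 with each cell weighted equally. In monocytes the shares were 4.28% higher and 2.36% lower, with 0 of the 6 genes higher and 3 lower, namely Arg1, Nos2 and Slc7a2. In neutrophils they were 3.99% and 5.91%, with 0 genes higher and 2 lower, Arg1 and Slc7a2. In neutrophil precursors they were 4.96% and 1.14%, again with 0 higher and the same 2 lower. Both of these levels were low. Precursor Slc7a2 had 31 and 20 UMIs, of which the richest cell held 7 and 8. Precursor Arg1 in PBS, at 19.8 CPM for the whole class, was at about the 21.5 CPM expected from free RNA. It was at 10.1 CPM in cells with Mki67 or Top2a and 47.7 CPM in those without. The Arg1 ratios of these parts were 0.137 (0.0712 to 0.246) and 0.671 (0.476 to 0.935), so those without were not 2-fold lower. In T cells the shares were 1.97% and 2.05%, with Nos2 and Slc7a2 higher and Arg1 lower. With classes by markers, the median ratio of the 6 genes was 0.939 in macrophages, 0.479 in monocytes and 0.704 in neutrophils. Over all genes with at least 50 UMIs it was 1.04, 1.05 and 1.02. The calls in monocytes depended on the classes. With classes from clusters, the monocyte ratios were 0.488 for Arg1, 0.778 for Nos2 and 1.21 for Slc7a2, so of these 3 only Arg1 stayed past 2-fold. The T cell values of Nos2 (2.91 and 16.5 CPM) and Slc7a2 (2.91 and 17.2 CPM) came mostly from 1 cmExoaCD11b cell of 26089 UMIs, which held 52 UMIs of each gene and 31 of Arg1. Without the richest cell of each library, 3 and 17 Nos2 UMIs and 5 and 20 Slc7a2 UMIs were left in T cells.

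The genes were also compared within single cells, at 1000 UMIs per cell. Of 55 PBS monocytes with Arg1, 14 (25.5%; 14.7 to 39.0%) also had Nos2, against 1.23% (0.149 to 4.36%) of those without Arg1. Slc7a2 was found in 14.5% (6.50 to 26.7%) of the same cells and in 0.613% (0.0155 to 3.37%) of the others. In PBS macrophages Slc7a2 was found in 19.5% (14.3 to 25.6%) of cells with Arg1 and 7.41% (3.89 to 12.6%) of cells without, and Nos2 in 8.29% (4.91 to 12.9%) and 2.47% (0.677 to 6.20%). In PBS, cells with Arg1 thus had Nos2 more often than cells without it, in monocytes with separate counting intervals and in macrophages with overlapping ones. PBS monocytes with a detected macrophage marker held more of both genes than those without, Arg1 at 1913 against 136 CPM and Nos2 at 104 against 22.1 CPM. Whether the pairing holds within these 2 parts was not tested. In PBS neutrophils Arg2 was found in 49.7% (42.6 to 56.9%) of cells with Nos2 and 36.2% (34.6 to 37.8%) of cells without, and in cmExoaCD11b neutrophils in 45.3% (36.1 to 54.8%) and 41.7% (40.0 to 43.4%). In cmExoaCD11b only 10 monocytes and 29 macrophages had Arg1 on this scale, too few to compare.

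The rest of the pathway stayed mostly within 2-fold, as did most genes. Over all genes with at least 50 UMIs, 4.21% were at least 2-fold lower in macrophages, 2.36% in monocytes and 5.91% in neutrophils. At least 2-fold higher were 3.63%, 4.28% and 3.99%. Nothing particular to the pathway is read from the counts below. Of 40 further genes of arginine transport, the urea cycle, nitric oxide and its cofactor, ornithine and polyamines, and proline and creatine, 30 had at least 50 UMIs in macrophages, 27 in monocytes and 30 in neutrophils. In macrophages 0 were at least 2-fold higher and 1 lower, in monocytes 0 and 0, and in neutrophils 0 and 1, with median ratios of 1.03, 0.934 and 0.816. The gene in macrophages was Ddah2, which breaks down inhibitors of nitric oxide synthase, at 9.58 CPM in PBS (52 UMIs) and 2.27 CPM in cmExoaCD11b (2 UMIs), a ratio of 0.237 with an interval of 0.0280 to 0.901. The gene in neutrophils was Gch1, which makes the cofactor of nitric oxide synthase, at 157 and 75.4 CPM, a ratio of 0.481 (0.456 to 0.508). Gch1 was at 94.7 and 126 CPM in macrophages, a ratio of 1.33 (1.08 to 1.64), and at 136 and 140 CPM in monocytes, where the interval of the ratio of 1.02 (0.890 to 1.18) held 1. By role, the 5 nitric oxide genes measured in neutrophils had a median ratio of 0.653 and the 15 polyamine genes one of 0.947.

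**Figure D5:**
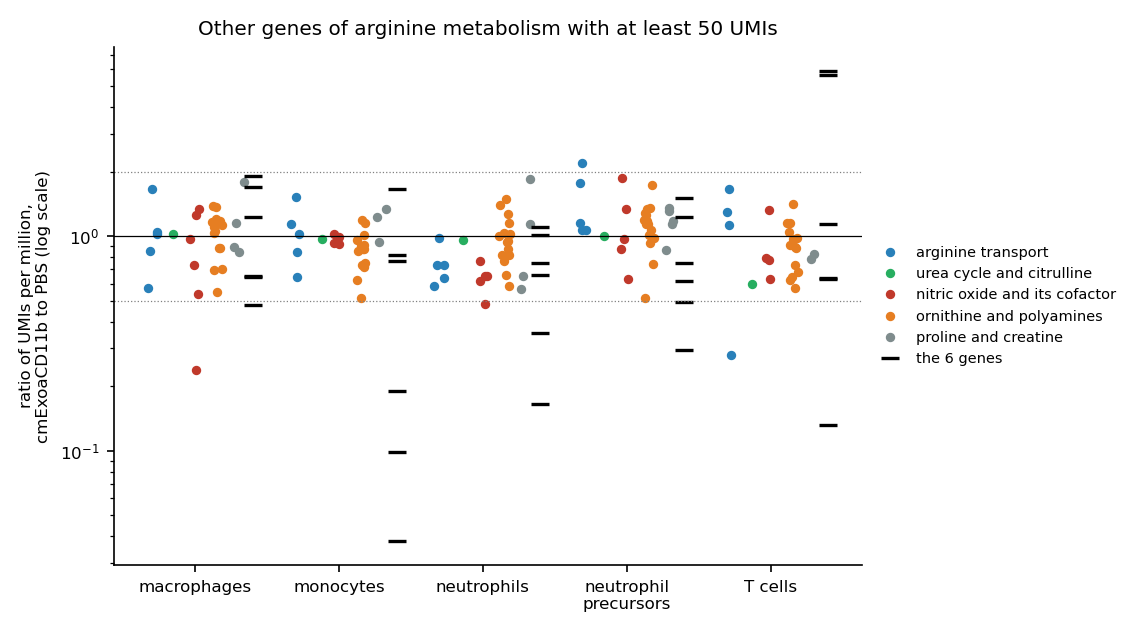
Ratio of cmExoaCD11b to PBS (log scale) for the other genes of arginine metabolism with at least 50 UMIs in a class, colored by role, with the 6 genes as black bars and dotted lines at 2-fold. In macrophages 1 of 30 points (Ddah2, 0.237) and in neutrophils 1 of 30 (Gch1, 0.481) lies below 0.5, and none of 27 does in monocytes. Over all genes with at least 50 UMIs, 4.21% were at least 2-fold lower in macrophages, 5.91% in neutrophils and 2.36% in monocytes.

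Over the 14 combinations of class and library with at least 50 cells, each member was set beside 10906 genes by Pearson's r of log2 (CPM + 1), as a description. The classes share 2 libraries, and cells of a class share their depth and lineage. Ecm1 (0.985), C3ar1 (0.966), Cxcl14 (0.956) and Mmp14 (0.955) were among the 5 genes most like Arg1. Cd300lf (0.983), Cebpb (0.980), Ccr1 (0.978), Il1b (0.977) and Rab20 (0.977) were most like Arg2. For Nos2 they were Adam8 (0.926), Reps2 (0.924), Gm34643 (0.915), AA467197 (0.912) and Bcl2a1a (0.911). For Slc7a2 they were Dcstamp (0.957), Arhgap22 (0.952), Rnase4 (0.950), Gas2l1 (0.946) and Tnfrsf11a (0.943). Ass1 was most like Tmem259 (0.965), Slc17a5 (0.953), Ptdss2 (0.945), Vac14 (0.933) and Golph3l (0.929). Odc1 was most like Gm14305 (0.942), Kcnn4 (0.933), Gtf3c5 (0.921), 6230400D17Rik (0.913) and Spg20 (0.908). Among the 6 genes, Arg1 and Slc7a2 were the most alike (0.908), and Arg2 and Odc1 the least (-0.327).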

How the data were processed

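Tumor-infiltrating cells were sequenced with the 10x Genomics 3′ chemistry as 1 library for each of 2 treatments, pooled from 3 mice. The authors deposited raw UMI counts per gene and barcode, with empty droplets included and Cell Ranger 7.1.0 named in the matrix headers. The genome build and the number of doses were not given in the sources used here, so no coordinates are printed. There were 67143628 UMIs on 644248 barcodes in PBS and 81288480 on 723594 in cmExoaCD11b.

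Cells were barcodes above the 99th percentile of the 3000 largest divided by 10, or with at least 500 UMIs and a profile apart from empty droplets (at most 100 UMIs; 10000 simulations, false discovery rate 0.01). A minimum of 200 genes and a maximum of 20% mitochondrial UMIs were required. Scrublet's automatic threshold marked 0 doublets, so the highest scores were removed at 0.8% per 1000 cells, 5.80% of PBS and 6.02% of cmExoaCD11b cells. A cell joined 1 of 14 classes with at least 2 detected markers, each at 1 or more UMIs per 10000 (S100a8 and S100a9 at 50, the granule genes Ltf, Camp, Ngp and Lcn2 at 5), and at least 1 more than any other class. The names were rebuilt from the counts, so they may differ from those of the study. For the classes from clusters, the cells of both libraries were clustered together without the 6 genes. Each cluster took the class held by the majority of its cells with a class by markers, and all its cells were counted in that class. Shares were thinned to 1000 UMIs per cell. Classes under 50 cells in a library are not compared.

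The genes named were the 6 genes in each such class, pathway genes past 2-fold with at least 50 UMIs in macrophages, monocytes or neutrophils, and the 5 genes most like each member among those with at least 200 UMIs, of which 1 is not reported here. The genes and lists were chosen with earlier results of these data known. The divisions by Mmp12, Retnlg, Cxcr2, dividing cells and macrophage markers were made after the classes had been seen. Interval and call scripts were tested on Poisson counts drawn from class profiles. These hold no spread between cells, so only the calculation was tested. Python 3.11.15, scanpy 1.11.5, numpy 2.4.6 and scipy 1.17.1 were used.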

Additional observations from a re-analysis of the deposited data

Results flagged for a closer look

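The Odc1 ratio lay above 1 in neutrophil precursors and below 1 in T cells. Without the cell richest in Odc1 in each library, it was 72.9 CPM in PBS and 89.7 CPM in cmExoaCD11b precursors, a ratio of 1.23 (1.11 to 1.36), and 301 and 188 CPM in T cells, a ratio of 0.624 (0.563 to 0.692). The ratio of the precursors was 1.97 times that of the T cells, and with 1 library per treatment the difference between the classes was not tested. Over all genes with at least 50 UMIs, the median ratio was 1.18 in precursors and 1.00 in T cells. The Odc1 ratio of precursors was thus near that of the median gene of the class, and that of T cells was below it.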

How the results depend on the processing

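Of 215 ratios of the 6 genes in macrophages, monocytes and neutrophils under the alternatives, 160 stayed within the 95% interval of the reported ratio. The ratio fell outside it in the cases that follow. With cells above the ranked-UMI cut-off alone it was 0.0321 for Arg1 and 0.111 for Slc7a2 in monocytes, and 0.151 for Arg1, 1.20 for Arg2, 1.06 for Nos2, 0.269 for Slc7a2 and 0.959 for Odc1 in neutrophils. With no doublets removed it was 0.503 for Arg1 in macrophages, and 0.258 for Arg1 in neutrophils. With at least 3 markers required it was 2.11 for Ass1 in monocytes. With a lead of at least 2 markers it was 2.23 for Nos2 in macrophages, 0.00584 for Arg1, 0.0472 for Nos2, 2.67 for Ass1 and 1.07 for Odc1 in monocytes, and 0.590 for Nos2 in neutrophils. With classes from clusters it was 0.502 for Arg1, 1.27 for Arg2, 2.44 for Nos2 and 1.02 for Slc7a2 in macrophages, 0.488 for Arg1, 1.22 for Arg2, 0.778 for Nos2 and 1.21 for Slc7a2 in monocytes, and 0.0980 for Arg1, 0.167 for Slc7a2 and 0.558 for Ass1 in neutrophils. With macrophages and monocytes pooled it was 0.137 for Arg1, 0.859 for Arg2, 0.415 for Nos2, 0.200 for Slc7a2 and 0.790 for Odc1 in macrophages, and 0.137 for Arg1 and 0.415 for Nos2 in monocytes. Without cells carrying a macrophage marker (chosen after seeing the data) it was 0.0542 for Arg1, 1.08 for Arg2, 0.370 for Nos2 and 0.589 for Odc1 in monocytes, and 0.108 for Arg1, 1.07 for Arg2, 0.560 for Slc7a2 and 0.856 for Odc1 in neutrophils. With each cell weighted equally it was 0.620 for Arg1, 0.450 for Arg2 and 1.20 for Slc7a2 in macrophages, 0.468 for Slc7a2 and 2.09 for Ass1 in monocytes, and 1.15 for Arg2 and 0.523 for Slc7a2 in neutrophils. Scaled by the median ratio of genes it was 0.435 for Arg1 in macrophages. Without the cell richest in the gene in each library (chosen after seeing the data) it was 0.421 for Arg1, 1.17 for Nos2 and 0.530 for Slc7a2 in macrophages, 0.0192 for Arg1 in monocytes, and 0.133 for Arg1 in neutrophils. Slc7a2 in monocytes, reported as more than 2-fold lower, was the only such ratio to pass 1, with classes from clusters, and the cause of these shifts was not tested. Of 36 ratios of shares, 31 stayed within their interval, and the ratio of the shares of neutrophils with Ass1, where 9 of 3752 PBS and 4 of 3497 cmExoaCD11b cells had a UMI, became 1.46 when thinned to 2000 UMIs and 1.43 unthinned. With genes of at least 20 UMIs, 6.73% of genes were at least 2-fold lower in macrophages and 3.56% in monocytes. No ratio could be given for Slc7a2 in monocytes without a macrophage marker, because cmExoaCD11b held 0 UMIs. Leaving out a replicate was not possible with 1 library per treatment, and no paired analysis was possible because each treatment had 1 pool, from different animals. The 70 cmExoaCD11b macrophages and the 3 mice in each pool limit every value.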
